A study of Mus musculus with 15 samples.

Results

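The podocyte and epithelial matrix integrins are the cell surface receptors by which podocytes and tubule cells hold on to basement membrane. The group was given as a list of 10 named genes, found by symbol among the 46078 genes of the deposited count table: 5 alpha subunits (Itga1, Itga3, Itga6, Itga8 and Itgav), 4 beta subunits (Itgb1, Itgb5, Itgb6 and Itgb8) and Ilk, a cytoplasmic partner of beta subunits. Their mRNA was counted in podocyte fractions of male C57BL/6J mice. Young mice were 4 months old and received no injection (5 libraries). Aged mice were 21 months old when they were randomized and received an intraperitoneal injection each week, at 12 mg/kg for 8 weeks, of either the anti-PD-1 antibody RMP1-14 (aged aPD1ab, 4 libraries) or the isotype control antibody 2A3 (aged IgG2a, 4 libraries). Age and injection therefore cannot be told apart where aged mice are set against young mice. The podocyte fraction was the part of digested kidney cortex that antibodies against nephrin, a slit diaphragm protein of podocytes, retained on a magnetic column.

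An integrin is a pair of an alpha and a beta subunit that together bind extracellular matrix outside the cell and the actin cytoskeleton inside it. Itgb1 pairs with many alpha subunits, and with Itga3 it forms the main laminin receptor of the podocyte, without which the foot processes and the glomerular basement membrane do not form properly. Itga6 also binds laminin and is common in tubule epithelium. Itga1 binds collagen, and Itga8, a mesangial cell integrin in the adult glomerulus, binds nephronectin and other ligands that carry the RGD sequence. Itgav binds RGD ligands with a choice of beta partners, of which Itgb6 and Itgb8 are known for activating latent TGF-β and Itgb5 for binding vitronectin. Ilk links the beta subunit tail to actin through PINCH and parvin.

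Total counts ranged from 19912969 to 32717100 per library, and values are given as CPM, the usual depth-scaled counts, after TMM scaling over the 13 libraries. Replicate numbers are names only, and each library was placed in its group by the library number that the study prints in its principal component plot. The aged IgG2a replicate 1 stood apart. Its score on the first principal component (40.7% of the variance over 16330 genes) was -16.4. The other 3 aged IgG2a libraries scored 71.6 to 84.2 there and young libraries -41.4 to -24.6. On the second component (18.9%) replicate 1 scored 17.2. That lay between the other aged IgG2a libraries (-10.3 to -2.1) and the aged aPD1ab libraries (23.6 to 56), with young libraries at -46 to -25.8. Counts of calls and fold changes of the members that use aged IgG2a replicate 1 are given with and without it. For other genes both fold changes are given only in part. Aged aPD1ab replicate 2 had the lowest score on the first component, -64.9, with the other 3 of its group at -13.9 to 10.9. All 12 podocyte markers were detected, and their summed level was 1044 to 1627 CPM in young, 594 to 775 in aged IgG2a and 349 to 966 in aged aPD1ab mice. Markers of other cells were present as well: the 10 proximal tubule markers summed to 5798 to 8988 CPM in young, 870 to 4237 in aged IgG2a and 4351 to 12701 in aged aPD1ab mice, and the 6 markers of the loop of Henle and distal tubule to 6726 to 9542, 5892 to 13816 and 5744 to 10326 CPM. The fraction was thus rich in tubule RNA, and the level of an integrin subunit here is that of a mixture. In such bulk libraries fewer cells of a type and less RNA per cell cannot be told apart.

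**Figure D1:**
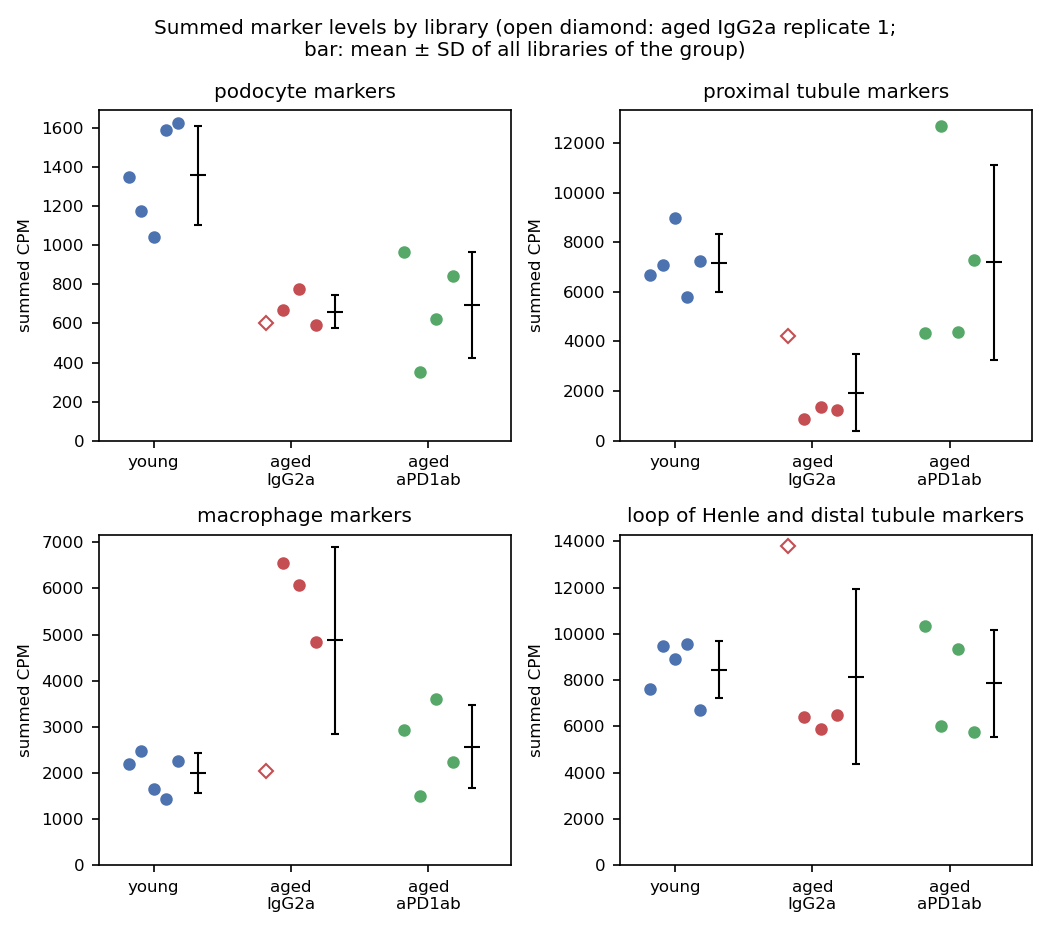
Summed CPM (y axis) of the markers of podocytes, proximal tubule, macrophages, and loop of Henle and distal tubule in each library, by group (x axis). Each point is a library, the open diamond is aged IgG2a replicate 1, and the bar is the group mean ± SD. The proximal tubule sum of the other 3 aged IgG2a libraries (870 to 1372 CPM) was below that of every young and aged aPD1ab library, and their macrophage sum (4828 to 6544 CPM) was above all of them.

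Sequence upstream of 3 of the genes is shown because these genes moved apart: Itgb6 and Itga3 were lower in aged IgG2a than in young mice and Itgb5 was not. The windows are RefSeq promoter sequence (GRCm38.p6), written 5′ to 3′ on the strand of the gene. Each was cut back to the bases upstream of every exon of its gene annotated in GENCODE. Bases between such an exon and the RefSeq start are thus not printed either. Of the members, 9 had a RefSeq window. The window of Itgb8 lay wholly in an annotated exon and is not printed. Capitals mark GC boxes (GGGCGG, either strand).
Itgb6, minus strand, chr2:60722644-60722853: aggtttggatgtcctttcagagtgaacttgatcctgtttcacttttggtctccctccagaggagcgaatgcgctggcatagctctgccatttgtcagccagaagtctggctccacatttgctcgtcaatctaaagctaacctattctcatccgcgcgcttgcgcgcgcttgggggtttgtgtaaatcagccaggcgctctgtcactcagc
Itga3, minus strand, chr11:95076802-95076964: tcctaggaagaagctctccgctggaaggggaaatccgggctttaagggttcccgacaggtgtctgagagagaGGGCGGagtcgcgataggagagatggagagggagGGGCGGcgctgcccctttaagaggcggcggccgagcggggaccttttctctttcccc
Itgb5, plus strand, chr16:33829415-33829664: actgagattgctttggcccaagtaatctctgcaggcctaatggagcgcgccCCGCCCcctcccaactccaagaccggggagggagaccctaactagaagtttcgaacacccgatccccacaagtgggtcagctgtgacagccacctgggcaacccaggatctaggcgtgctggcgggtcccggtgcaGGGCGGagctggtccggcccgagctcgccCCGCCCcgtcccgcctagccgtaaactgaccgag

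Over the whole 250 bases before the first listed start, Itgb5 held 3 GC boxes and Itgb6 held 0. Itga3 held 3, of which 1 lies in the bases not printed. Of the 32851 RefSeq windows of that length, 32.7% held a GC box on either strand. Neither TATAAA (12.4% of windows) nor CCAAT (33.8%) was found in these 3 windows on either strand. The window of Itgb8 held 1 CCAAT box and no GC box. These are matches of letters and say nothing about which factor binds.

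Compared per kilobase of exon, Itgb1 was the most abundant member in all 13 libraries, at 75.3 ± 8.24 CPM per kb (SD, n = 13). Itgb5 was second in all 13, at 56.7 ± 9.80 CPM per kb. The alpha subunits lay well below them. Itga6 (13.9 ± 2.68), Itga3 (11.1 ± 3.46) and Itgav (10.5 ± 1.61 CPM per kb) overlapped in range, with Itga6 above Itga3 in 10 libraries and Itga3 above Itgav in 7. Itga8 followed at 7.34 ± 2.51 and Itgb6 at 6.06 ± 2.43 CPM per kb, whose order held in 9 libraries. Itgb8 (3.32 ± 2.21) and Itga1 (2.17 ± 0.828 CPM per kb) came last of those with usable counts, and Itgb8 was above Itga1 in 7 libraries. The summed alpha subunits per kb were 0.678 ± 0.0499 times the Itgb1 level in young mice (SD, n = 5), 0.503 ± 0.152 in aged IgG2a mice (n = 4; 0.428 ± 0.0320 without replicate 1) and 0.613 ± 0.0738 in aged aPD1ab mice (n = 4).

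The first comparison set aged IgG2a mice against uninjected young mice, so that age and the control injection differed together. Of the 9 members that passed the filter on low counts, Itga3, Itgb6 and Itgb8 were lower in aged IgG2a mice at an adjusted p under 0.05, where 8.38% of all genes tested were called lower. No member was called higher, where 9.05% of all genes were. Without replicate 1, 5 members were called lower (background 23.5%) and 1 higher (background 22.1%): Itga1 and Itga6 joined the 3 lower ones, and Itgb5 was higher. The median log2 fold change of the 9 members was -0.62, and over all genes tested it was 0.04. The second comparison, aged aPD1ab against aged IgG2a, asked what the antibody changed. With all libraries edgeR called 0 of the 9 members, and 0% of all genes either higher or lower, although 4341 genes had an unadjusted p under 0.05. Other tools made calls on the same libraries, 2132 genes with DESeq2 and 6177 with limma voom with sample weights. Without replicate 1 edgeR called Itga3, Itgb6 and Itgb8 higher (background 17.1%) and Itgav lower (background 13.2%). The third comparison, aged aPD1ab against young, called Itga1, Itgav and Itgb8 lower (background 9.97%) and no member higher (background 12.4%). The comparisons share libraries. The first and the second share the aged IgG2a ones, the first and the third the young ones, and the second and the third the aged aPD1ab ones. Their values are therefore set side by side and not counted as separate evidence.

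**Figure D2:**
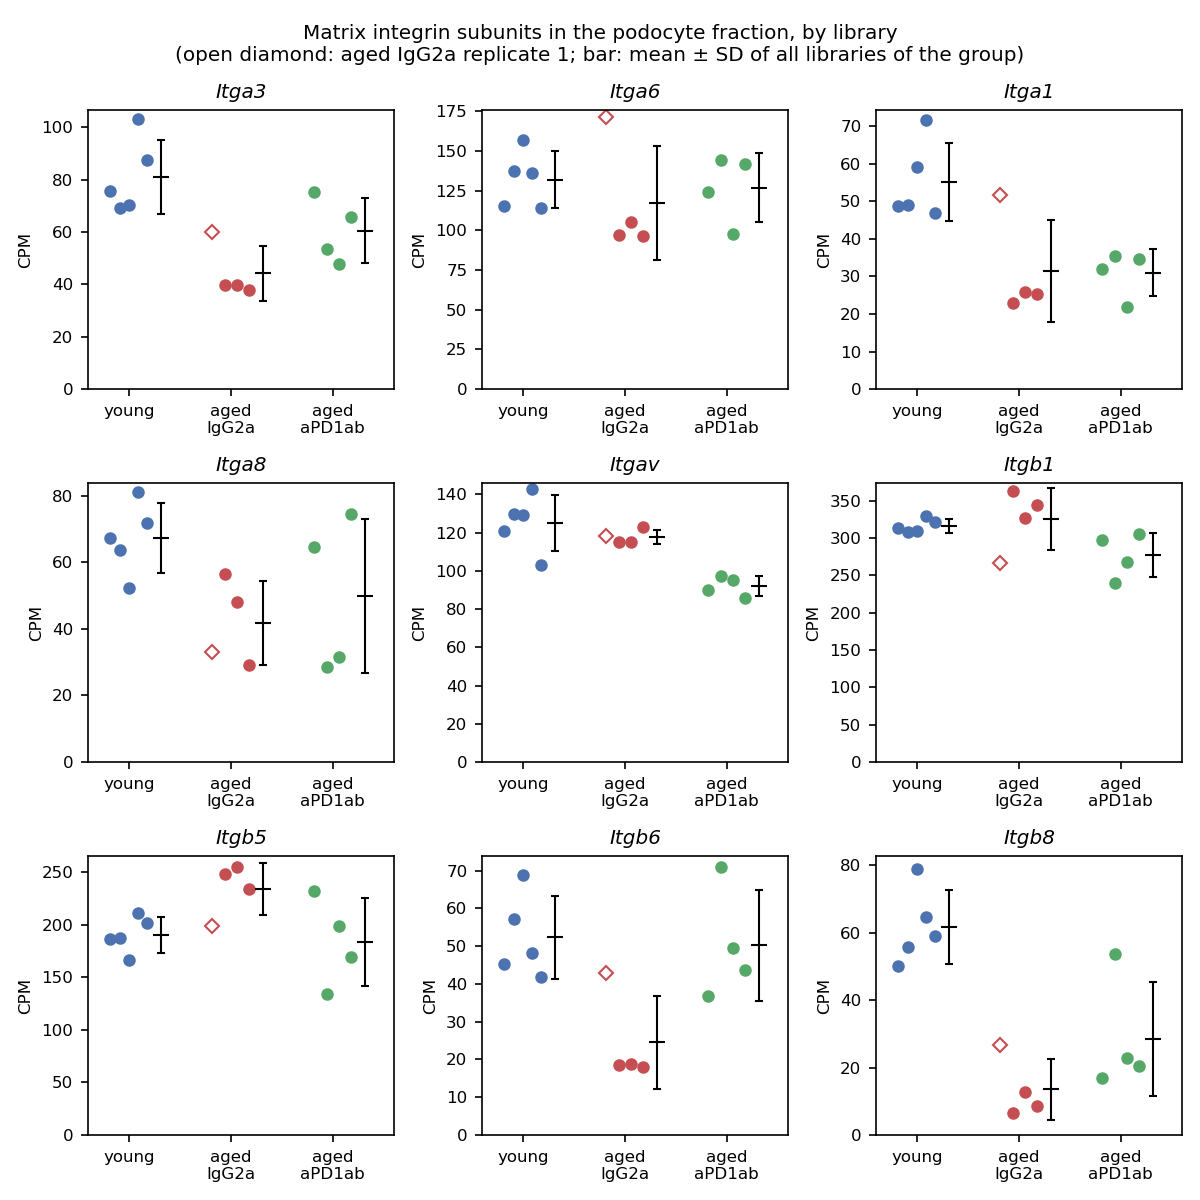
CPM (y axis, from 0) of the 9 members with usable counts in each library of the 3 groups (x axis). Each point is a library, the open diamond is aged IgG2a replicate 1, and the bar is the mean ± SD of all libraries of the group. Itga3 and Itgb8 in all 4 aged IgG2a libraries lay below all 5 young libraries, whereas Itgb6 did so in 3 of them.

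**Figure D3:**
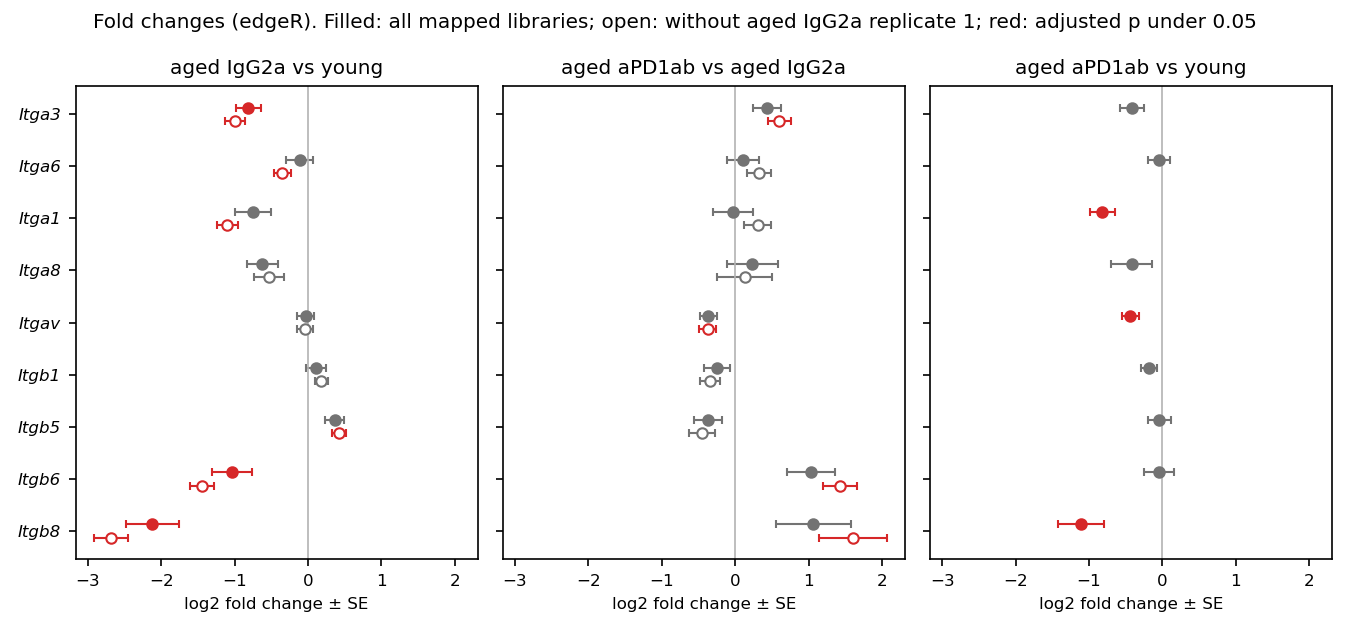
Log2 fold change ± SE from edgeR (x axis) of each member (y axis) in the 3 comparisons. Filled points use all libraries, open points leave out aged IgG2a replicate 1, and red marks an adjusted p under 0.05. In aged aPD1ab against aged IgG2a no filled point is red and 4 open points are.

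Itga3 (ENSMUSG00000001507, chromosome 11, 95044474 to 95076801, minus strand), the alpha subunit of the podocyte laminin receptor, was at 75.8, 69.0, 70.3, 103 and 87.3 CPM in the 5 young libraries. It was at 60 CPM in aged IgG2a replicate 1 and at 39.6, 39.8 and 37.9 CPM in the others, and the aged aPD1ab libraries held 75.1, 53.4, 47.7 and 65.9 CPM. All 4 aged IgG2a libraries were below all young ones. The 4 aged aPD1ab libraries were above the 3 other aged IgG2a libraries and overlapped with replicate 1 and with the young. Aged IgG2a was 1.76-fold below young (log2 fold change -0.81, SE 0.17, edgeR adjusted p = 0.0172). Without replicate 1 the log2 fold change was -0.997 (SE 0.13, edgeR adjusted p = 0.000202). The call with all libraries rested on single libraries of the aged group, with adjusted p = 0.0560 from edgeR without aged IgG2a replicate 2 and 0.0609 without replicate 3. Aged aPD1ab against aged IgG2a gave a log2 fold change of 0.44 (SE 0.19, edgeR adjusted p = 0.176), and 0.60 (adjusted p = 0.0263) without replicate 1. Aged aPD1ab against young gave -0.41 (SE 0.16, edgeR adjusted p = 0.0965).

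Itga6 (ENSMUSG00000027111, chromosome 2, 71745616 to 71858416, plus strand), the other laminin-binding alpha subunit, held 115, 137, 157, 136 and 114 CPM in young libraries. Aged IgG2a replicate 1 had the highest value of all 13 libraries, 171 CPM, while the others had 97.2, 105 and 96.1. The aged aPD1ab libraries held 124, 144, 97.6 and 142 CPM. The 3 other aged IgG2a libraries were below all young ones and replicate 1 was above them. The log2 fold change of aged IgG2a against young was -0.11 (SE 0.19, edgeR adjusted p = 0.692) with all libraries and -0.35 (SE 0.12, adjusted p = 0.0317) without replicate 1. In the other comparisons it was 0.11 (edgeR adjusted p = 0.783) for aged aPD1ab against aged IgG2a, 0.33 (adjusted p = 0.163) without replicate 1, and -0.05 (adjusted p = 0.845) against young.

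Itga1 (ENSMUSG00000042284, chromosome 13, 114953096 to 115101964, minus strand), the collagen-binding alpha subunit, was at 48.8, 49.1, 59.2, 71.5 and 46.9 CPM in young libraries. Aged IgG2a replicate 1, at 51.7 CPM, lay within the young range, and the others were at 22.9, 25.9 and 25.4. The aged aPD1ab values of 32.0, 35.5, 21.9 and 34.6 CPM were all below the young. Aged aPD1ab was 1.76-fold below young (log2 fold change -0.82, SE 0.18, edgeR adjusted p = 0.0105). This held in all 17 alternative settings, with adjusted p from 0.000306 to 0.0324. Aged IgG2a against young gave -0.75 (SE 0.24, edgeR adjusted p = 0.0562), and -1.10 (adjusted p = 0.000173) without replicate 1. Between the aged groups the log2 fold change was -0.03 (SE 0.27, edgeR adjusted p = 0.960) with all libraries and 0.30 (adjusted p = 0.231) without replicate 1. Itga1 lies around Pelo, whose exons it does not share. The annotated gene Gm49395 shares exons with it and was not analysed here.

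Itga8 (ENSMUSG00000026768, chromosome 2, 12106632 to 12301922, minus strand), the RGD-binding subunit of mesangial cells, spread widely within the treated group. The young libraries held 67.4, 63.8, 52.3, 81.0 and 71.9 CPM, the aged IgG2a libraries 33.2, 56.5, 48.0 and 29.3, and the aged aPD1ab libraries 64.6, 28.6, 31.5 and 74.5. In the aged aPD1ab group 2 libraries lay within the young range and 2 below it. With all libraries and TMM scaling none of the comparisons passed the test: -0.62 (SE 0.21, edgeR adjusted p = 0.0658) for aged IgG2a against young, 0.23 (SE 0.35, adjusted p = 0.690) between the aged groups and -0.42 (SE 0.28, adjusted p = 0.304) for aged aPD1ab against young. Without replicate 1 the first was -0.53 (edgeR adjusted p = 0.0625) and the second 0.13 (adjusted p = 0.823). Under scaling by total counts the first was -1.04 (edgeR adjusted p = 0.0182), and it also passed with DESeq2 (-0.63, adjusted p = 0.0266) and voom (-0.47, adjusted p = 0.0393). The summed level of 8 mesangial markers was 213 to 274 CPM in young, 91.3 to 197 in aged IgG2a and 148 to 292 in aged aPD1ab libraries; its part in these values was not tested. Of the exon bases of Itga8, 5.05% are shared with an antisense gene, E030013I19Rik, which had 410 counts against 18728 for Itga8.

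Itgav (ENSMUSG00000027087, chromosome 2, 83724397 to 83806916, plus strand), the alpha partner of Itgb5, Itgb6 and Itgb8, was lowest in the aged aPD1ab mice under TMM scaling. Their 4 libraries held 89.8, 97.2, 95.3 and 85.7 CPM. The young libraries held 121, 130, 129, 143 and 103 CPM, and the aged IgG2a libraries, replicate 1 included, were close together at 118, 115, 115 and 123. Every aged aPD1ab value was below every value of either other group. Aged aPD1ab was 1.35-fold below young (log2 fold change -0.44, SE 0.11, edgeR adjusted p = 0.0202; adjusted p = 0.0613 without aged aPD1ab replicate 4). Against aged IgG2a the log2 fold change was -0.36 (SE 0.12, edgeR adjusted p = 0.122) with all libraries and -0.38 (SE 0.11, adjusted p = 0.0362) without replicate 1. The 2 fits thus gave nearly the same difference on either side of the threshold. Aged IgG2a against young gave -0.03 (SE 0.12, edgeR adjusted p = 0.872), and -0.04 (adjusted p = 0.784) without replicate 1. These values depended on the scaling: with total counts the difference between the aged groups was -0.11 (edgeR adjusted p = 0.766) and that of aged IgG2a against young -0.46 (adjusted p = 0.0742), while aged aPD1ab against young stayed called at -0.57 (adjusted p = 0.0224).

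Itgb1 (ENSMUSG00000025809, chromosome 8, 128685654 to 128733200, plus strand), the common beta subunit, was the steadiest member in young mice, at 313, 308, 309, 330 and 321 CPM. The aged IgG2a libraries held 267, 363, 327 and 345 CPM, and the aged aPD1ab libraries 297, 240, 268 and 305. Aged IgG2a replicate 1 was the lowest of its group, and all 4 aged aPD1ab values lay below the young range. The log2 fold changes were small and none passed the test: 0.11 (SE 0.14, edgeR adjusted p = 0.581) for aged IgG2a against young, -0.25 (SE 0.18, adjusted p = 0.365) between the aged groups and -0.18 (SE 0.11, adjusted p = 0.264) for aged aPD1ab against young. Without replicate 1 the first was 0.18 (edgeR adjusted p = 0.119) and the second -0.34 (adjusted p = 0.0919). The sign of the first and of the second turned, to -0.33 and 0.04, when libraries were scaled by total counts alone.

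Itgb5 (ENSMUSG00000022817, chromosome 16, 33829665 to 33949338, plus strand), the vitronectin-binding partner of Itgav, was at 186, 187, 166, 211 and 202 CPM in young libraries. In aged IgG2a replicate 1 it was at 199 CPM, within the young range, and in the others at 248, 255 and 234, above it. The aged aPD1ab libraries spread from 134 CPM in replicate 2 over 169 and 199 to 232 in replicate 1. Aged IgG2a against young gave a log2 fold change of 0.37 (SE 0.13, edgeR adjusted p = 0.0754) with all libraries, 0.43 (SE 0.10, adjusted p = 0.00487) without replicate 1, and -0.08 (adjusted p = 0.747) under scaling by total counts, so its direction depended on the scaling. Between the aged groups the log2 fold change was -0.37 (SE 0.20, edgeR adjusted p = 0.240) with all libraries and -0.45 (adjusted p = 0.0896) without replicate 1, and for aged aPD1ab against young it was -0.04 (SE 0.16, adjusted p = 0.867).

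Itgb6 (ENSMUSG00000026971, chromosome 2, 60598292 to 60722643, minus strand), an epithelial beta subunit that activates latent TGF-β, held 45.2, 57.3, 68.9, 48.2 and 41.9 CPM in young libraries. In aged IgG2a replicate 1 it was at 42.8 CPM, within the young range, and in the other 3 at 18.5, 18.7 and 18.0. The aged aPD1ab libraries held 36.7, 70.9, 49.5 and 43.8 CPM, near the young levels. Aged IgG2a was 2.05-fold below young (log2 fold change -1.03, SE 0.27, edgeR adjusted p = 0.0326; -1.45, SE 0.16, adjusted p = 7.08e-05 without replicate 1). This call was lost when any of 7 other libraries was left out, namely young replicates 1 to 4 and aged IgG2a replicates 2, 3 and 4, with edgeR adjusted p from 0.0576 to 0.0987. Between the aged groups the log2 fold change was 1.03 (SE 0.33, edgeR adjusted p = 0.115), and without replicate 1 it was 1.43 (SE 0.23, adjusted p = 0.00777), a 2.69-fold higher level in aged aPD1ab mice. Aged aPD1ab against young gave -0.05 (SE 0.21, edgeR adjusted p = 0.881). The library with the most Itgb6, aged aPD1ab replicate 2, was also the library with the highest proximal tubule sum, 12701 CPM, and the 3 libraries with the least Itgb6 were those with the lowest, 870, 1372 and 1223 CPM. The parietal epithelial marker sum was also highest in aged aPD1ab replicate 2 (225 CPM) and lowest in those 3 libraries (80 to 85.8 CPM). The loop of Henle and distal tubule sum had another order, with 6022 CPM in aged aPD1ab replicate 2 and its highest value, 13816 CPM, in aged IgG2a replicate 1. The part of tubule RNA, or of RNA from other cells, in the Itgb6 values was not tested.

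Itgb8 (ENSMUSG00000025321, chromosome 12, 119158022 to 119238802, minus strand), the other activator of latent TGF-β, had the largest fold change of the 9 members in aged IgG2a against young. It was at 50.2, 55.9, 79.0, 64.8 and 59.1 CPM in young libraries. It fell to 26.6, 6.54, 12.7 and 8.64 CPM in aged IgG2a libraries, replicate 1 having the highest value. In aged aPD1ab libraries it was at 16.8, 53.6, 22.9 and 20.4 CPM, and replicate 2 alone reached the young range. No aged IgG2a value overlapped with the young. Aged IgG2a was 4.35-fold below young (log2 fold change -2.12, SE 0.36, edgeR adjusted p = 0.00997; -2.68, SE 0.23, adjusted p = 2.38e-05 without replicate 1). It was the only member whose call in that comparison held in all 17 alternative settings, with adjusted p up to 0.0378. Aged aPD1ab was 2.16-fold below young (log2 fold change -1.11, SE 0.32, edgeR adjusted p = 0.0301), a call that was lost when any of 7 libraries was left out (young replicates 2 to 5 and aged aPD1ab replicates 1, 3 and 4), with edgeR adjusted p from 0.0510 to 0.0799. It was also lost in 1 fit of all 3 groups (edgeR adjusted p = 0.0712) and with no filter on low counts (adjusted p = 0.0669). The log2 fold change between the aged groups was 1.07 (SE 0.51, edgeR adjusted p = 0.203) with all libraries and 1.60 (SE 0.46, adjusted p = 0.0330) without aged IgG2a replicate 1, and 0.53 (adjusted p = 0.509) without aged aPD1ab replicate 2. Without that library aged aPD1ab against young gave -1.62 (edgeR adjusted p = 0.00106). Aged aPD1ab replicate 2, with the highest proximal tubule sum, had the lowest podocyte sum of all libraries, 349 CPM. What part either cell type has in the Itgb8 values was not tested.

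Because Itgb5, Itgb6 and Itgb8 share Itgav, their mix was followed within each library, where scaling between libraries has no effect. Itgb5 made up 80.5 ± 4.09% of the summed CPM per kb of the 3 beta subunits in young mice (SD, n = 5), Itgb6 11.2 ± 2.69% and Itgb8 8.43 ± 1.64%. In aged IgG2a mice the shares were 93.2 ± 4.19%, 5.02 ± 2.89% and 1.80 ± 1.33% (SD, n = 4), and without replicate 1 they were 95.3 ± 0.306%, 3.57 ± 0.0850% and 1.15 ± 0.356% (n = 3). In aged aPD1ab mice they were 83.5 ± 8.16%, 12.0 ± 4.99% and 4.46 ± 3.23% (n = 4). The mean Itgb6 and Itgb8 shares were thus smallest in aged IgG2a mice, but single libraries overlapped. Aged IgG2a replicate 1 held 9.36% Itgb6 and 3.74% Itgb8, within the aged aPD1ab ranges of 7.17 to 19.0% and 2.11 to 9.23%. The top of both ranges was aged aPD1ab replicate 2. The Itgb6 share of aged aPD1ab mice overlapped with that of the young.

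**Figure D4:**
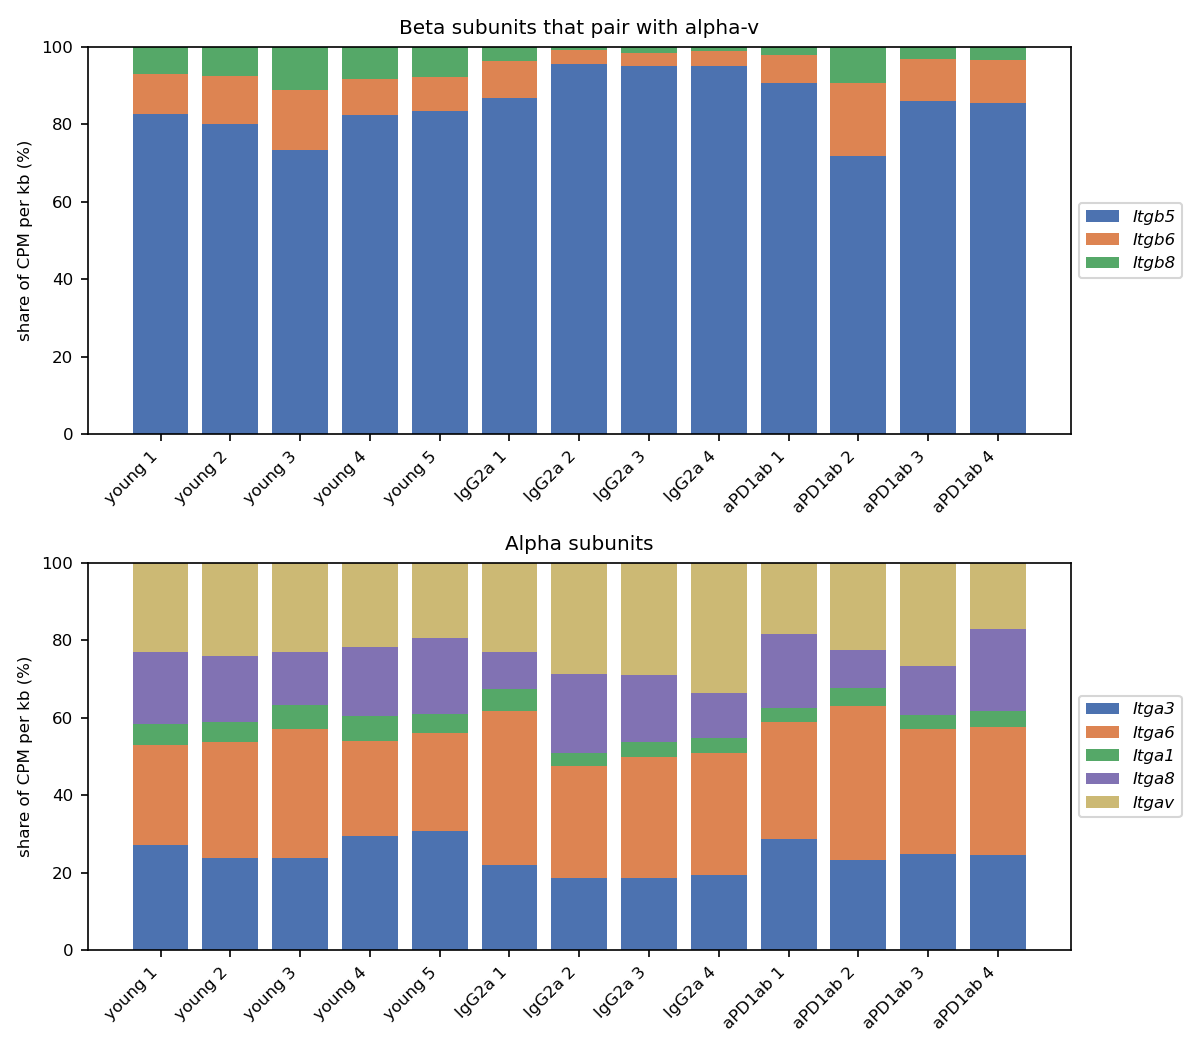
Share of the summed CPM per kb of exon (y axis, %) taken by each subunit in each library (x axis). The upper panel sums Itgb5, Itgb6 and Itgb8 and leaves out other beta subunits. The lower panel sums the alpha subunits among the members and leaves out other alpha subunits. In the upper panel Itgb5 takes 95.0 to 95.6% in aged IgG2a replicates 2 to 4 and 73.5 to 83.5% in young libraries.

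The ratio of Itgb8 to Itgb5 counts gave a mean log2 value of -1.63 ± 0.324 in young mice (SD, n = 5) and -4.31 ± 1.01 in aged IgG2a mice (SD, n = 4). The groups did not overlap, and the difference of -2.67 had the smallest p that 4 against 5 libraries allow (exact two-sided permutation test p = 0.0159, adjusted p = 0.119 over 15 tests). For Itgb6 to Itgb5 the difference was -1.47 (exact permutation p = 0.0317, adjusted p = 0.119). The log2 ratio between the aged groups was 1.49 higher with aPD1ab for Itgb8 to Itgb5 (exact permutation p = 0.114, adjusted p = 0.190) and 1.47 higher for Itgb6 to Itgb5 (exact permutation p = 0.0571, adjusted p = 0.171). Without replicate 1 these were 1.96 and 1.85 (exact permutation p = 0.0571 for both, the smallest that 4 against 3 allow). For the laminin receptors, the log2 ratio of Itga6 to Itga3 was 0.71 ± 0.354 in young mice and 1.39 ± 0.0930 in aged IgG2a mice, replicate 1 included, without overlap (exact permutation p = 0.0159, adjusted p = 0.119). The log2 ratio of Itga3 to Itgb1 was -1.98 ± 0.202 in young and -2.89 ± 0.498 in aged IgG2a mice (exact permutation p = 0.0317, adjusted p = 0.119). It was -2.21 ± 0.211 in aged aPD1ab mice. No ratio passed the adjusted threshold in any comparison. Without replicate 1 the 4 ratios each separated aged IgG2a from young completely (exact permutation p = 0.0357, the smallest that 3 against 5 allow). In that setting edgeR called 45.6% of all genes tested. How often ratios of other gene pairs separate these libraries was not tested.

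Ilk (ENSMUSG00000030890, chromosome 7, 105736592 to 105742925, plus strand) could not be measured in this table. It had 37 counts over all 13 libraries, with 4, 4, 7, 2 and 2 in young, 0, 6, 2 and 1 in aged IgG2a and 3, 0, 0 and 6 in aged aPD1ab libraries, and 8 libraries held 3 counts or fewer. It did not pass the filter on low counts and was not tested. In GENCODE, 89.69% of its exon bases also lie in exons of genes on the opposite strand, 76.75% in Taf10 and 12.94% in Rrp8, which had 8851 and 4194 counts. Among protein-coding genes 171, Ilk included, share as large a part of their exons or more. Of those, 90.1% had no more counts than Ilk, against 34.7% of the 15877 that share none. These groups of genes were not matched for level or type, and the part of exon sharing in the Ilk count was not tested. Whether reads were counted by strand is not given in the sources used here. With so few counts the Ilk value is not read as a level of expression, and its ratio to Itgb1 is not interpreted.

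**Figure D5:**
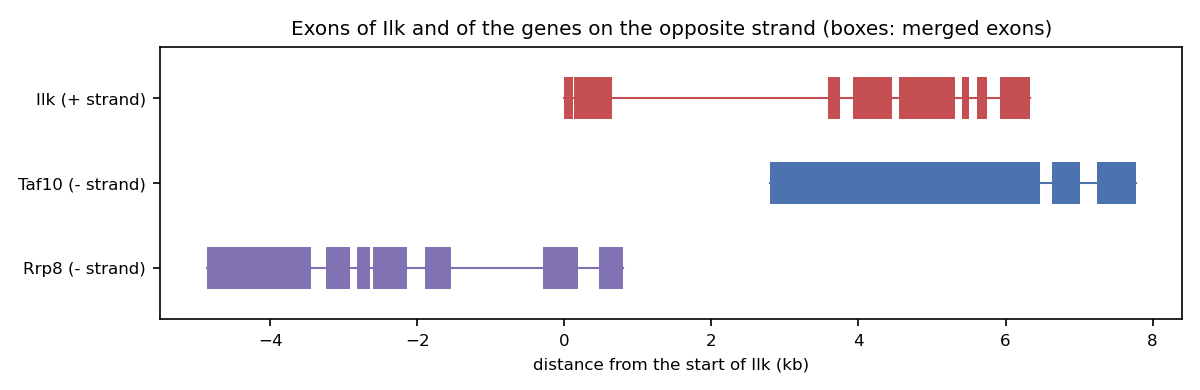
Merged exons (boxes) of Ilk, Taf10 and Rrp8 by distance from the start of Ilk in kb (x axis), 1 gene per row with its strand. Taf10 covers 76.75% of the Ilk exon bases and Rrp8 12.94%, both from the opposite strand.

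The genes whose level followed each member most closely were found over the 13 libraries among 9504 genes with a mean of at least 10 CPM, by Pearson's r of log2 CPM. They are a description only, since the libraries share groups and cell mixture. For Itga3 they were Ripor1 (r = 0.970), Tmem150c (0.965) and Efnb1 (0.953), and for Itga8 Mrc2 (0.976), Adamts5 (0.924) and Sfrp2 (0.922). Sfrp2 is also a gene of the mesangial marker list. For Itgb6 they were Fam213a (r = 0.982), Arl6ip1 (0.980) and Nfs1 (0.980), and for Itgb8 Lrrc19 (0.978), Tbcel (0.977) and Chpt1 (0.976). Itga1 went with Trim44 (r = 0.973), Dag1 (0.972), which encodes the laminin receptor dystroglycan, and Ap1g1 (0.972), and Itga6 with Nav2 (0.944), Zc3h14 (0.921) and Slc22a23 (0.913). For Itgav the closest were Mbtps2 (r = 0.943), Dpy19l4 (0.935) and Mob1b (0.932), for Itgb1 Eps15 (0.952), Fkbp15 (0.941) and Coro2a (0.936), and for Itgb5 Eif4e3 (0.976), Ago4 (0.951) and Cttnbp2nl (0.951).

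Among the matrix ligands of these receptors, the calls in aged IgG2a mice were in 1 direction. In aged IgG2a against young, 12 of the 25 ligand genes tested fell and 0 rose, where 8.38% of all genes were called lower and 9.05% higher, with a median log2 fold change of -0.50 against 0.04 for all genes. Without replicate 1, 18 fell and 1 rose, where 23.5% of all genes were called lower and 22.1% higher. Col4a3, a chain of the mature glomerular basement membrane collagen, fell from 218 to 67.3 CPM (log2 fold change -1.64, SE 0.28, edgeR adjusted p = 0.0102), and its partner Col4a4 fell from 302 to 160 CPM (-0.87, SE 0.24, adjusted p = 0.0352). Without replicate 1 the log2 fold changes were -2.10 for Col4a3 (edgeR adjusted p = 2.21e-06) and -1.21 for Col4a4 (adjusted p = 4.23e-05). Both chains are made by podocytes, and the summed level of the 12 podocyte markers was 1044 to 1627 CPM in young, 594 to 775 in aged IgG2a and 349 to 966 in aged aPD1ab libraries; its part in these values was not tested. For aged aPD1ab against young, 7 of 25 fell (background 9.97%) and 1 rose (background 12.4%). Among those that fell were Col4a3 (-1.18, SE 0.21, edgeR adjusted p = 0.00557) and Col4a4 (-0.60, adjusted p = 0.0239). The gene that rose was Spp1, which encodes the RGD ligand osteopontin and is abundant in tubules, from 693 to 1066 CPM (0.63, SE 0.19, edgeR adjusted p = 0.0340). With aPD1ab against IgG2a 0 of 25 were called with all libraries, and without replicate 1 there were 6 called higher (background 17.1%) and 1 lower (background 13.2%) of 26, with Col4a3 at 95.6 against 48.8 CPM (0.95, edgeR adjusted p = 0.0301).

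The adaptors and kinases at the beta subunit tail moved in both directions. Of 24 genes tested, 5 fell (background 8.38%) and 1 rose (background 9.05%) in aged IgG2a against young. Without replicate 1, 13 fell (background 23.5%) and 7 rose (background 22.1%). Lims2, a PINCH protein that binds Ilk, fell from 23.4 to 11.8 CPM (log2 fold change -0.93, SE 0.15, edgeR adjusted p = 0.00834). The more abundant PINCH gene Lims1 did not fall, with 56.7 CPM in young and 67.4 in aged IgG2a mice (0.32, SE 0.19, edgeR adjusted p = 0.254). Without replicate 1 Lims1 was called higher (0.49, edgeR adjusted p = 0.000428). Rsu1, which binds PINCH, rose from 29.3 to 39.8 CPM (0.51, SE 0.12, edgeR adjusted p = 0.0256). The calls of the most abundant genes of the list depended on replicate 1. With all libraries neither passed, Tns1 (tensin) with 626 against 1041 CPM (edgeR adjusted p = 0.0511) and Flna (filamin) with 568 against 422 (adjusted p = 0.202). Without replicate 1 the log2 fold change was -0.90 for Tns1 (edgeR adjusted p = 0.000586) and 0.71 for Flna (adjusted p = 0.00164). With aPD1ab against IgG2a 0 of 24 were called, and without replicate 1 there were 7 called higher (background 17.1%) and 6 lower (background 13.2%). For aged aPD1ab against young, 3 fell (background 9.97%) and 1 rose (background 12.4%).

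Of the genes that handle latent TGF-β, the cargo of Itgb6 and Itgb8, 3 of 9 rose (background 9.05%) and 1 fell (background 8.38%) in aged IgG2a against young, and 4 rose and 1 fell without replicate 1 (background 22.1% and 23.5%). Tgfb1 rose from 59.8 to 122 CPM (log2 fold change 1.10, SE 0.33, edgeR adjusted p = 0.0470) and Nrros, a macrophage protein that anchors latent TGF-β, from 76.6 to 150 CPM (1.04, SE 0.28, adjusted p = 0.0327). Ltbp2 rose from 0.389 to 1.30 CPM (1.80, edgeR adjusted p = 0.0326) and Ltbp1 fell from 21.5 to 12.8 CPM (-0.69, adjusted p = 0.0164). The 8 macrophage markers, whose sum was 1425 to 2468 CPM in young and 2040 to 6544 in aged IgG2a libraries, moved in the same direction as Tgfb1 and Nrros, with 7 of 8 called higher; their part in those values was not tested. Of the 9, 2 rose in aged aPD1ab against young (background 12.4%), Ltbp2 (1.47, edgeR adjusted p = 0.0125) and Tgfb3. In the same comparison 2 fell (background 9.97%), Ltbp1 (-0.95, edgeR adjusted p = 0.00658) and Ltbp4. None of the 9 was called between the aged groups. Without replicate 1, 2 were lower with aPD1ab (background 13.2%) and 0 higher (background 17.1%). The lower ones were Tgfb1 (-0.90, edgeR adjusted p = 0.0254) and Nrros (-0.83, adjusted p = 0.0375).

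Among 10 other integrin subunits, Itga9 and Itga4 were the most abundant. In aged IgG2a against young, 1 of 9 tested rose, the fibronectin receptor subunit Itga5 (39.5 to 67.1 CPM, log2 fold change 0.83, SE 0.26, edgeR adjusted p = 0.0487), and 1 fell, Itga7 (background 9.05% and 8.38%). Without replicate 1, 2 rose and 2 fell (background 22.1% and 23.5%), with Itga5 at 1.01 (edgeR adjusted p = 0.00194) and Itga7 at -1.60 (adjusted p = 0.000221). In aged aPD1ab against young, 3 of 9 tested fell (background 9.97%) and 0 rose (background 12.4%). Itga4, a leukocyte integrin, fell from 74.3 to 36.4 CPM (log2 fold change -1.02, SE 0.15, edgeR adjusted p = 0.00374). The others were Itgb4, the partner of Itga6 in hemidesmosomes, and the scarce Itga2 (0.966 to 0.283 CPM, -1.70, edgeR adjusted p = 0.0386). Itga9 was at 77.1 CPM in young, 113 in aged IgG2a (edgeR adjusted p = 0.100 against young) and 57.6 in aged aPD1ab mice (adjusted p = 0.237 against young). Without replicate 1 Itga9 rose in aged IgG2a against young (log2 fold change 0.83, edgeR adjusted p = 7.3e-05) and was lower with aPD1ab than with IgG2a (-1.23, adjusted p = 0.0166), as was Itga4 (-1.40, adjusted p = 0.00737). Of the 5 tetraspanins that sit beside laminin-binding integrins, 0 were called in aged IgG2a against young with all libraries and all 5 without replicate 1, 3 higher (background 22.1%) and 2 lower (background 23.5%). The most abundant, Cd81, was at 322 against 281 CPM (edgeR adjusted p = 0.111), and at 323 against 281 (log2 fold change 0.25, adjusted p = 0.0307) without replicate 1. The 2 lower ones were Cd63 (-0.39, edgeR adjusted p = 0.0337) and Cd151 (-0.42, adjusted p = 0.00358), the latter a close partner of Itga3. Cd63 rose in aged aPD1ab against young, from 245 to 455 CPM (log2 fold change 0.90, SE 0.21, edgeR adjusted p = 0.0134). With aPD1ab against IgG2a 0 of 5 were called with all libraries. Without replicate 1, 2 were higher (background 17.1%) and 0 lower (background 13.2%). The higher ones were Cd63 (1.32, edgeR adjusted p = 0.0114) and Cd151 (0.35, adjusted p = 0.0412).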

How the data were processed

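mRNA of magnetically sorted podocyte fractions was sequenced from TruSeq libraries. The authors deposited raw counts of reads per Ensembl gene, without normalization; the submitters' processing notes name HISAT2, featureCounts and mm10/GRCm38, and give no version or strand setting in the sources used here. The 13 count columns used were tied to groups by the numbers printed in the principal component plot of the study, not to single GEO samples, and 2 columns were not used. The study states that each mouse gave its own library; no batch is named. Symbols, positions and exon lengths came from GENCODE M21.

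edgeR 4.0.16 was run on 2 groups at a time (R 4.3.3; quasi-likelihood, robust, TMM, filterByExpr) with Benjamini-Hochberg adjustment over all genes tested and calls at an adjusted p under 0.05. Fold changes are log2 values with SE. Log2 CPM used a prior count of 2. Log2 ratios of counts (0.5 added) were compared by exact two-sided permutation tests (SciPy 1.17.1), adjusted over 15 tests. Totals ranged from 19912969 to 32717100, and a floor of 3 counts covers counting error only. Scripts were checked on simulated counts.

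The members, the 5 pathway lists and the 10 cell type lists were chosen with earlier results of these data known. The text names all members and the 3 genes most like each member. Of each pathway list it names the 2 most abundant genes and the largest called change in each direction. Itga7, Itgb4, Tgfb3, Ltbp4, Cd151 and Lims1 were added after their values were seen. Cell type lists are given as summed CPM. Alternatives were RLE, total count and upper quartile scaling, no filter, DESeq2 1.42.0, limma 3.58.1 voom with sample weights, 1 fit of all groups, no mitochondrially encoded genes, no pseudocount, and each library left out. The labels of the aged aPD1ab samples also name 47 days.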

Additional observations from a re-analysis of the deposited data

Results flagged for a closer look

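Each member and ratio was checked in each group for a library far from the others (42 checks; chance alone marks about 1 group in 20). In 6 of the 8 that were marked the library was aged IgG2a replicate 1. It was high for Itga1 (51.7 CPM, the others 22.9 to 25.9), Itga3 (60 CPM, the others 37.9 to 39.8), Itga6 (171 CPM, the others 96.1 to 105) and Itgb6 (42.8 CPM, the others 18.0 to 18.7). It was also high for the log2 ratio of Itga3 to Itgb1 (-2.16, the others -3.20 to -3.04) and of Itgb6 to Itgb5 (-2.21, the others -3.76 to -3.70). Aged aPD1ab replicate 2 was high for Itgb8 (53.6 CPM, the others 16.8 to 22.9). Young replicate 3 was high for the log2 ratio of Itgb8 to Itgb5 (-1.07, the others -1.89 to -1.70).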

How the results depend on the processing

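No paired analysis was possible because the columns carry no replicate numbers shared between groups. Of 450 alternative values for the 27 member fold changes, 388 kept their direction and side of the threshold, 26 passed it newly, 19 no longer passed it and 17 changed sign; the cause was not tested. Of 116 for the 12 ratios, 5 changed sign and the others kept both. For the ratios, keeping the side of the threshold says little. The exact permutation p has a floor of 0.0159 for 4 against 5 libraries and of 0.0286 for 4 against 4. In aged IgG2a against young, ratios at that floor still had an exact permutation adjusted p of 0.119 over 15 tests.

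The number of genes called in aged IgG2a against young was 2780 (17.4% of genes tested). It was 3711 (23.3%) with total counts, 4252 (16.3%) with DESeq2 and 7447 (46.7%) with voom. With a library left out it was 553 (3.40%, without aged IgG2a replicate 3) to 7397 (45.6%, without replicate 1). The members called (3) were 5 with total counts, 6 with DESeq2 and 6 with voom. With a library left out they were 1 to 6 (1 without aged IgG2a replicate 3 or replicate 2, where 4.15% of all genes were called). In aged aPD1ab against aged IgG2a the genes called (0) were 2132 (8.41%) with DESeq2, 6177 (39.8%) with voom and 2863 (17.5%) in 1 fit of all groups. With a library left out they were 0 to 4788 (30.4%, without aged IgG2a replicate 1). The members called (0) were 2, 5 and 2 in the same order, and 0 to 4 with a library left out. In aged aPD1ab against young 3578 genes (22.4%) were called with all libraries. Leaving out a library gave 2369 (14.6%, without aged aPD1ab replicate 4) to 3868 genes (23.8%, without aged aPD1ab replicate 1). It gave 1 to 3 members, the 1 without aged aPD1ab replicate 4.

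The signs that turned were these. In aged IgG2a against young they were Itgav (0.01 with voom; -0.10 to 0.02 with a library left out) and, under total counts, Itgb1 (-0.33) and Itgb5 (-0.08; 0.37 with TMM). Between the aged groups these were Itga1 (0.18 with total counts, 0.28 with voom, -0.18 to 0.30 with a library left out), Itgb1 (0.04 with total counts) and Itga8 (-0.03 to 0.42 with a library left out). In aged aPD1ab against young these were Itga6 (0.00 with voom, -0.11 to 0.06 with a library left out), Itgb5 (-0.18 to 0.08), Itgb6 (-0.27 to 0.07) and the log2 ratio of Itgb6 to Itgb5 (-0.32 to 0.26). Total count scaling moved the median log2 fold change of all genes to -0.38, 0.24 and -0.11 in the 3 comparisons.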
